A study of Mus musculus with 108 samples.

Results

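The mRNAs described here encode 9 factors of deadenylation and maternal mRNA clearance in the mouse oocyte: Btg4, Zfp36l2, Cnot1, Cnot6l, Cnot7, Cnot8, Pan2, Dcp1a and Dcp2. Each symbol matched 1 Ensembl mouse gene ID, so the set is 9 of the 55573 genes counted in every library. All 9 passed the filter on low counts in both library types. The set was defined by function. In build mm10 and on GENCODE M21, Btg4 (ENSMUSG00000032056) spans chr9:51060901-51119875 on the plus strand, Cnot7 (ENSMUSG00000031601) chr8:40492540-40515847 on the minus strand and Cnot8 (ENSMUSG00000020515) chr11:58104153-58118594 on the plus strand. Pan2 (ENSMUSG00000005682) spans chr10:128303335-128321358 and Dcp1a (ENSMUSG00000021962) chr14:30479535-30527063, both on the plus strand, and Zfp36l2 (ENSMUSG00000045817) spans chr17:84183931-84187947 on the minus strand.

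RNA was sequenced from single mouse oocytes of control females and of cKO females, in which Exosc10 was knocked out in the oocyte alone. Exosc10 encodes a ribonuclease of the nuclear RNA exosome. The labels used here name no Cre driver, strain or age. PolyA libraries were made from GV oocytes (germinal vesicle stage, arrested before meiotic resumption), from GV3h oocytes (3 hours in culture) and from MII eggs (second meiotic arrest, taken from the oviduct). RiboMinus libraries, made without selection for a poly(A) tail, covered GV and MII. The polyA libraries held 7 control and 15 cKO oocytes at GV (2 and 2 females), 8 and 11 at GV3h (3 and 3 females) and 8 and 15 at MII (3 and 3 females). The RiboMinus libraries held 8 control and 7 cKO oocytes at GV (2 and 2 females) and 3 control and 4 cKO oocytes at MII (1 and 2 females). Oocytes of a female are not independent, so tests ran on counts summed per female, 16 females for polyA and 7 for RiboMinus. Each female gave 1 stage and 1 genotype. At RiboMinus MII the lone control female, V1145, was assumed to vary like the females of the other groups, and its own properties and those of its group cannot be told apart.

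A growing oocyte stores many mRNAs with short poly(A) tails, untranslated, and lengthens the tails of some of them when meiosis resumes. A large share of the remaining maternal mRNA is then degraded. Removal of the poly(A) tail by the CCR4-NOT complex is the main entry to this decay, and in the oocyte BTG4 is the adaptor that joins the complex to the translated mRNAs. Several mRNAs of the clearance machinery are themselves known as stored mRNAs that are translated during maturation. An oligo(dT) capture recovers long-tailed mRNA better than short-tailed mRNA, whereas RiboMinus libraries do not select on the tail. The comparison of the library types at GV and MII therefore bears on tail-dependent capture of these mRNAs. The library types also came from different females and differed in preparation and depth. Those differences and capture by the tail cannot be told apart in this design.

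Levels are CPM, gene counts divided by a library's total and scaled with TMM factors within a library type. They are shares of a library and do not show RNA per oocyte. Gene counts per oocyte ranged from 4638718 to 8735914 in polyA and from 12319658 to 62675760 in RiboMinus libraries. The highest count was that of 1 oocyte of RiboMinus MII cKO female V1166, whose other oocyte had 20678209. Sums of that female are therefore weighted toward that 1 oocyte. Exosc10 had 45.9 to 144 CPM in the control females of the polyA libraries and 0.0799 to 2.04 CPM in the cKO females, and 100.5 to 140.1 against 1.20 to 3.71 CPM in RiboMinus. No group overlapped with its cKO counterpart for Exosc10. The 10 oocyte markers summed to between 6279 and 25102 CPM in every oocyte, with none at 0 across a whole group. The 11 granulosa cell markers summed to between 67.9 and 203.2 CPM. The most abundant were Cyp19a1 and Nr5a2, with means of 36.8 and 37.2 CPM in polyA GV controls and 98.9 and 23.4 CPM in polyA MII controls. Inha and Hsd17b1 had means of 7.13 and 2.88 CPM in polyA GV controls and were at 0 in all polyA MII control oocytes, as were Foxl2, Fst and Fshr. The median of the summed list was 90.2 CPM in polyA GV and 131.8 CPM in polyA MII controls, and 120.6 and 164.5 CPM in RiboMinus GV and MII controls. In RiboMinus controls the mean of Nr5a2 was 71.9 CPM at GV and 129 CPM at MII, and that of Inha 1.94 and 0.0216 CPM. Amh reached 27.7 CPM in 1 RiboMinus GV cKO oocyte. The summed list was higher and several of its members lower at MII than at GV in controls, and their part in the stage changes of the clearance factors was not tested. Female V857 of the polyA GV cKO group held libraries that stood apart. The median correlation of each of its oocytes with the others of the group was 0.886 to 0.916, against 0.917 to 0.943 for the other female. In the polyA GV3h cKO group, female V983 had 0.897 to 0.925, against 0.939 to 0.953 for the other females. In the polyA MII control group, V836 had 0.906 to 0.937, against 0.930 to 0.942 for the other females. In the RiboMinus GV cKO group, V1126 had 0.8975 to 0.9403, against 0.9368 to 0.9572 for V1131.

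Stored mRNAs that gain a tail during maturation often carry a cytoplasmic polyadenylation element (CPE) close to the polyadenylation hexamer. The 3′ ends of the clearance factors were therefore searched on the transcript strand for TTTTAT or TTTTAAT in the last 100 bases of any annotated mRNA end with AATAAA or ATTAAA in its last 50 bases (GENCODE M21, build mm10). Of the 9 genes, 5 held such a motif: Btg4, Cnot7, Cnot8, Pan2 and Dcp1a. Over all genes with such an end the share was 20.6% of 16030. The sites, 30 bases each, are printed because these 5 mRNAs recur in the comparison of library types. Capitals mark the CPE and the hexamer. The hexamer of Btg4 lies 60 bases after its CPE and outside the stretch, and in Dcp1a the motifs overlap.
Btg4 (chr9:51119484-51119513, plus strand): aaaaTTTTATgaacactagtgaatataggt
Cnot7 (chr8:40493036-40493065, minus strand): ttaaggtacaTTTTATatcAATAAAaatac
Cnot8 (chr11:58118552-58118581, plus strand): tatgtTTTTAATtttgtaaAATAAAgattg
Pan2 (chr10:128321309-128321338, plus strand): acagcatgTTTTATaaAATAAAagtatttt
Dcp1a (chr14:30527011-30527040, plus strand): aaatatatttTTTTAATAAAatttcaaaac
The end of Zfp36l2 and 1 of the 3 ends of Cnot6l had a hexamer and no CPE in the window. Their sites are shown for contrast, with the hexamer in capitals.
Zfp36l2 (chr17:84183931-84183960, minus strand): tttgtagtttcccccAATAAAattttttgg
Cnot6l (chr5:96070340-96070369, minus strand): ttccctgtaggcAATAAAtggccattttgc
The end of Dcp2 held a hexamer and no CPE. None of the 3 ends of Cnot1 had a hexamer, although all 3 held TTTTAT. The Btg4 site belongs to 1 of its 3 annotated ends, and neither of the other ends held both motifs. The Cnot7 site belongs to 1 of its 4 ends, and the other 3 held a hexamer alone. All sites lie in 3′ UTRs. The only Cnot8 end is annotated as incomplete. The rule for ends was widened after values had been seen. With 1 principal end per gene and no hexamer required, Btg4, Cnot1, Pan2 and Dcp1a held the motif, Cnot7 did not and Cnot8 had no usable end. The share of all genes was then 17.8%. A match is a description of letters, not of a bound site, and which end the oocyte uses was not measured.

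Among the clearance factors, Btg4 had the highest level per length. In polyA libraries of GV controls its level was 566.5 ± 46.3 CPM per kb of exonic sequence (SD, n = 2 females). Dcp1a followed at 118 ± 5.48 and Cnot7 at 102 ± 13.6 CPM per kb, and these last 2 differed by less than the sum of their SDs. Cnot6l (62.9 ± 11.6) and Cnot8 (61.9 ± 3.05) lay within their spread of each other. Dcp2 stood at 21.1 ± 2.18, Pan2 at 17.8 ± 1.67 and Cnot1 at 13 ± 0.37 CPM per kb. Zfp36l2 was last at 0.843 ± 0.102 CPM per kb, from 14 to 26 counts per oocyte. In polyA MII controls Btg4 reached 2417 ± 253 CPM per kb, and Cnot7 (284 ± 41.4), Cnot8 (275 ± 33.2) and Dcp1a (253 ± 8.96) stood next, within their spread of each other. In RiboMinus GV controls Btg4 was again first at 626 ± 3.12 and Zfp36l2 again last at 7.36 ± 0.752 CPM per kb. Without division by length, Dcp1a (2219 CPM) was above Btg4 (1600 CPM) there. The length is that of all annotated exons of a gene, and the transcripts that the oocyte uses were not measured.

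**Figure D1:**
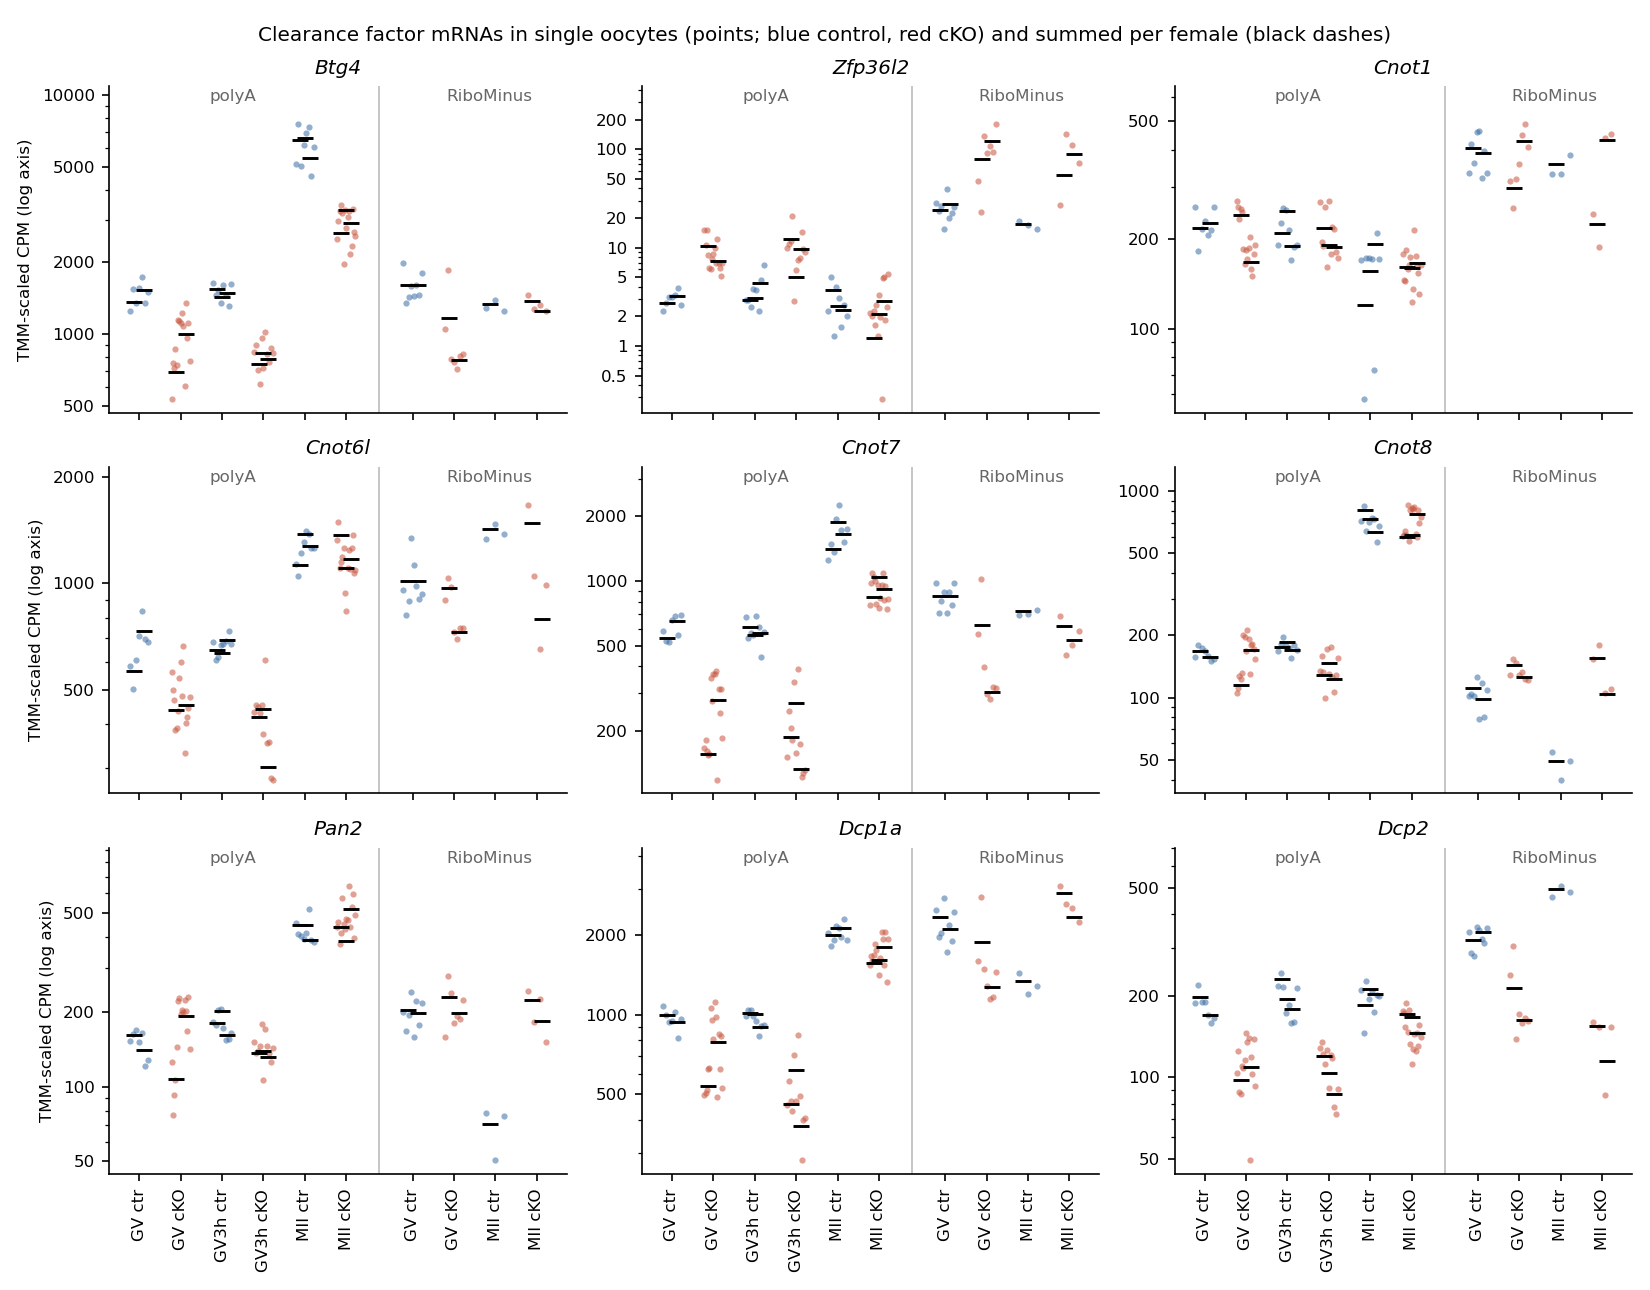
TMM-scaled CPM (log axis) of the 9 clearance factor mRNAs by group, with polyA libraries left of the grey line and RiboMinus libraries right of it. Points are single oocytes (blue control, red cKO) and black dashes are females; the 1 polyA MII cKO oocyte with 0 counts of Zfp36l2 is not drawn. In polyA libraries, Btg4 in MII controls sits at 5432 to 6585 CPM per female, above all other groups.

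From GV to MII, most clearance factors took a larger share of the polyA libraries of controls. Btg4, Cnot6l, Cnot7, Cnot8, Pan2 and Dcp1a rose and Cnot1 fell, while Zfp36l2 and Dcp2 did not pass the test. Called genes, here and below, had a Benjamini-Hochberg adjusted p under 0.05 over all genes in edgeR's quasi-likelihood test. By that rule 7 of the 9 were called, 6 higher and 1 lower. Over all 19242 genes tested, 42.5% were called, with 16.8% higher and 25.7% lower. The median log2 change was 1.10 over the 9 genes and -0.26 over all genes tested.

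Btg4, the adaptor, had 1364 and 1532 CPM in the 2 GV control females and 6514, 6585 and 5432 CPM in the 3 MII control females. The lowest MII female was well above the highest GV female. The log2 change was 2.09 ± 0.16 (SE, adjusted p = 5.23e-08). Of the catalytic subunits of CCR4-NOT, Cnot8, a deadenylase of the CAF1 type, rose most, from 169 and 158 to 808, 737 and 634 CPM (log2 2.15 ± 0.18, adjusted p = 1.45e-07). Its paralog Cnot7 had 539 and 651 CPM at GV and 1407, 1889 and 1660 CPM at MII (log2 1.47 ± 0.27, adjusted p = 3.01e-04). For these 3 mRNAs GV and MII females did not overlap. Cnot6l, a deadenylase subunit of the CCR4 type, went from 565 and 733 to 1130, 1383 and 1275 CPM (log2 0.96 ± 0.17, adjusted p = 2.37e-04).

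Pan2, the catalytic subunit of the other cytoplasmic deadenylase, PAN2-PAN3, had 161 and 141 CPM at GV and 449, 449 and 391 CPM at MII (log2 1.51 ± 0.21, adjusted p = 2.04e-05). Dcp1a, the activator of the decapping enzyme, went from 1002 and 938 to 1999, 2129 and 2123 CPM (log2 1.10 ± 0.19, adjusted p = 1.68e-04). Both were higher in every MII female than in every GV female. Dcp2, the decapping enzyme itself, had 197 and 170 CPM at GV and 185, 211 and 203 CPM at MII, which overlapped (log2 0.12 ± 0.16, adjusted p = 0.576).

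Cnot1, the scaffold on which the CCR4-NOT complex is built, fell from 218 and 227 CPM to 120, 156 and 192 CPM (log2 -0.51 ± 0.19, adjusted p = 0.0382). Of the 8 MII oocytes, 1 of V836 (58.0 CPM) and 1 of V853 (72.5 CPM) lay far below the other 6, at 170 to 210 CPM, and the 2 low oocytes had the fewest detected genes of the group, 13699 and 14930. The call was lost without GV female V856 (adjusted p = 0.103) or V889 (0.192) and without MII female V836 (0.135) or V853 (0.0751). It was also lost with DESeq2 (0.0642), with DESeq2 size factors (0.0686), with the compared groups alone (0.0847) and with no filter (0.0746), and its adjusted p ranged from 8.8e-04 to 0.192 over 13 alternatives. Zfp36l2, a zinc-finger protein that binds AU-rich elements and recruits CCR4-NOT, stayed near the bottom of the range, at 2.72 and 3.23 CPM at GV and 3.72, 2.54 and 2.33 CPM at MII (log2 -0.06 ± 0.45, adjusted p = 0.936). The other 6 calls stood in all 13 alternatives. Reads outside genes were 9.88% to 11.2% of a library in polyA GV controls and 5.90% to 6.68% in MII controls, and their part in the stage changes was not tested.

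Over the first 3 hours of culture, none of the 9 passed the test in either genotype. The same held for all 19242 genes, of which 0 were called (0% in each genotype) by edgeR, 16 in controls and 17 in cKO by DESeq2. At an unadjusted p under 0.05 there were 425 genes in controls and 373 in cKO oocytes. Of the clearance factors 0 in controls and 1 in cKO oocytes, Dcp1a, had an unadjusted p under that value. Btg4 had 1542, 1428 and 1487 CPM in GV3h controls, which overlapped with GV. Dcp1a in cKO oocytes had 538 and 789 CPM at GV and 462, 619 and 381 CPM at GV3h (log2 -0.45 ± 0.18, adjusted p = 1).

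In RiboMinus libraries of controls the same stage comparison gave no call among the 9. Only 0.00787% of 25425 genes were called, 2 genes, although 3834 had an unadjusted p under 0.05 and DESeq2 called 1545. Of the 9, 3 had an unadjusted p under 0.05 (Pan2, Cnot8 and Dcp1a), and DESeq2 called 2, both lower at MII: Pan2 (adjusted p = 7.93e-05) and Cnot8 (adjusted p = 0.0371). Btg4 had 1595 and 1606 CPM in the GV females and 1330 CPM in V1145 at MII (log2 -0.27 ± 0.30, adjusted p = 0.691). Cnot7 had 854 and 852 CPM at GV and 725 CPM at MII (log2 -0.24 ± 0.39, adjusted p = 0.805). Cnot8 had 111 and 98.3 CPM at GV and 49.1 CPM at MII (log2 -1.09 ± 0.32, adjusted p = 0.176). These 3 values at MII lay below both GV females, in the direction opposite to the polyA libraries.

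Pan2 had 204 and 197 CPM at GV and 70.4 CPM at MII in RiboMinus controls, the largest difference of the 9 (log2 -1.51 ± 0.28, adjusted p = 0.0905). Dcp1a had 2335 and 2104 CPM at GV and 1339 CPM at MII (log2 -0.73 ± 0.32, adjusted p = 0.324). Cnot6l (1015, 1013 and 1426 CPM) and Dcp2 (322, 344 and 495 CPM) were higher in V1145 than in both GV females, with adjusted p of 0.552 and 0.386. Fitted on the compared groups alone, 5 of the 9 were called over 3 females: Cnot6l and Dcp2 higher, Cnot8, Pan2 and Dcp1a lower. That setting called 5732 genes in all. Reads outside genes were 11.2% to 12% in V1145 and 8.34% to 12% in the GV controls.

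**Figure D2:**
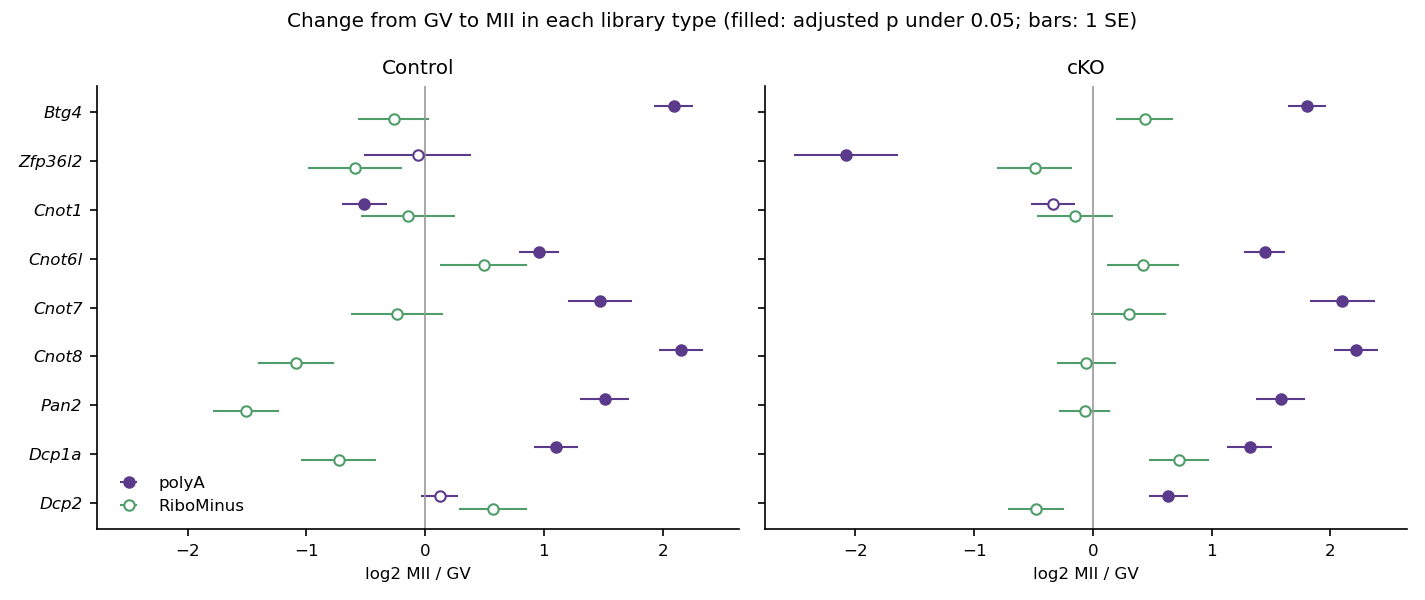
Log2 change from GV to MII for each clearance factor in polyA (purple) and RiboMinus (green) libraries, controls on the left and cKO oocytes on the right. Bars are 1 SE, and filled points had an adjusted p under 0.05. In controls the polyA points of Btg4, Cnot7, Cnot8, Pan2 and Dcp1a lie right of 0 and their RiboMinus points left of 0.

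The difference between the library types was tested directly, as the polyA change from GV to MII minus the RiboMinus change. In controls 5 of the 9 were called, all with the larger change in polyA libraries: Btg4, Cnot7, Cnot8, Pan2 and Dcp1a. Over all 24777 genes 22.8% were called, 10.9% in that direction. The median difference was 1.87 over the 9 genes and 0.00 over all genes. Cnot8 had the largest difference (log2 3.41 ± 0.36, adjusted p = 5.38e-07), followed by Pan2 (3.19 ± 0.37, adjusted p = 1.65e-06). Btg4 differed by 2.52 ± 0.31 (adjusted p = 3.75e-06), Dcp1a by 2.0 ± 0.34 (adjusted p = 1.69e-04) and Cnot7 by 1.87 ± 0.48 (adjusted p = 0.00604).

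On the scale shared by both library types, the ratio of polyA to RiboMinus CPM shows the same shift. For Cnot8 it was 1.65 in GV controls and 17.5 in MII controls. It moved from 0.794 to 7.24 for Pan2, from 0.959 to 5.51 for Btg4, from 0.74 to 2.7 for Cnot7 and from 0.462 to 1.85 for Dcp1a. Those ratios are relative between libraries and do not give a tail length. The remaining 4 stayed closer together: Cnot6l went from 0.679 to 1.05, Cnot1 from 0.594 to 0.516, Dcp2 from 0.583 to 0.479 and Zfp36l2 from 0.121 to 0.197. None of these 4 passed the test (log2 differences 0.63 ± 0.36, -0.20 ± 0.39, -0.29 ± 0.29 and 0.68 ± 0.65). All 5 calls stood in each of 18 alternatives, but every one of them rests on V1145 for the RiboMinus MII controls.

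The 5 mRNAs called in controls were those with a CPE and a hexamer at an annotated end. Since the rule for ends was settled with values in view, this match is a description and supports nothing. In cKO oocytes the called mRNAs did not match it: Cnot6l and Dcp2, with no CPE found, were called. Dcp1a, with both motifs, was not called there. As a background, genes with an average log2 CPM of at least 3 were split by the same letters, a restriction added after the values were seen. The median library difference in controls was 1.02 for 1836 genes with the motif and 0.0792 for 5431 without it. In cKO oocytes the medians were 0.913 and 0.279. The polyA change alone had medians of 0.707 and -0.0492 in controls, and the RiboMinus change -0.207 and -0.0323. With 1 principal end per gene the library difference in controls had medians of 0.937 for 1762 genes and 0.0516 for 6633. No test was made of this split.

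In cKO oocytes the stage change of the polyA libraries took in 8 of the 9, 7 higher and 1 lower, against 44.7% of all genes called (18.1% higher, 26.6% lower). The median log2 change was 1.45 over the 9 genes and -0.33 over all genes. Btg4 went from 693 and 999 CPM at GV to 2653, 3300 and 2901 CPM at MII (log2 1.80 ± 0.16, adjusted p = 3.33e-07). Cnot8 (log2 2.22 ± 0.18), Cnot7 (2.10 ± 0.27), Pan2 (1.58 ± 0.21), Cnot6l (1.45 ± 0.17) and Dcp1a (1.32 ± 0.19) rose as well, each with females that did not overlap between the stages. Dcp2 rose from 97.8 and 109 to 171, 167 and 145 CPM (log2 0.64 ± 0.16, adjusted p = 0.00436), a change of 0.12 with an adjusted p of 0.573 when library totals replaced TMM factors.

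Zfp36l2 fell in cKO oocytes, from 10.5 and 7.26 CPM at GV to 1.20, 2.09 and 2.86 CPM at MII (log2 -2.08 ± 0.44, adjusted p = 0.00111). Counts per oocyte were 43 to 122 at GV and 0 to 33 at MII. The stage change of Zfp36l2 differed between the genotypes by -2.02 ± 0.64, which did not pass the test of the difference (adjusted p = 0.122, and 0.022 to 0.39 over 18 alternatives). Of the 9 genes 0 were called in this interaction in edgeR, and 2 had an unadjusted p under 0.05. DESeq2 called 1, Zfp36l2, and 1.94% of all genes were called in edgeR and 1121 genes in DESeq2.

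RiboMinus libraries of cKO oocytes gave no call among the 9 for the stage change, with 2.32% of genes called, and 1 of the 9, Dcp1a, had an unadjusted p under 0.05. DESeq2 called Dcp1a alone among the 9. Dcp1a had 1893 and 1269 CPM at GV and 2901 and 2334 CPM at MII (log2 0.73 ± 0.25, adjusted p = 0.157, and 0.0412 with DESeq2). Pan2 (229 and 197 against 223 and 184 CPM) and Cnot8 (144 and 126 against 156 and 104 CPM) overlapped between the stages, unlike in controls. The interaction of stage and genotype in RiboMinus libraries, added after the data were seen, gave 0 calls among the 9 and 0% over all genes in edgeR, with 4 of the 9 under an unadjusted p of 0.05: Pan2, Dcp1a, Dcp2 and Cnot8. DESeq2 called 2, Pan2 and Dcp1a, among 1127 genes. The differences were 1.44 ± 0.35 for Pan2 (adjusted p = 0.174) and 1.46 ± 0.41 for Dcp1a (adjusted p = 0.204).

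The library difference in cKO oocytes was called for 6 of the 9, all larger in polyA, against 20.7% of genes called and 11.6% in that direction. They were Cnot8 (log2 2.45 ± 0.30), Cnot7 (1.97 ± 0.41), Pan2 (1.83 ± 0.30), Btg4 (1.54 ± 0.26), Dcp2 (1.29 ± 0.26) and Cnot6l (1.21 ± 0.32). Dcp1a, called in controls, had a difference of 0.77 ± 0.29 here (adjusted p = 0.0679), and 5 of 17 alternatives called it. Zfp36l2 had a difference in the other direction, -1.36 ± 0.56, which was not called (adjusted p = 0.092), but 7 of 17 alternatives called it, with an adjusted p of 0.0213 in DESeq2. Whether the library difference itself differed between the genotypes was not tested. With library totals in place of TMM factors, Cnot6l (0.52, adjusted p = 0.214) and Dcp2 (0.59, adjusted p = 0.101) lost the call. The call of Cnot6l was also lost without RiboMinus GV female V1126 (adjusted p = 0.0542) and with the compared groups alone (adjusted p = 0.0907). Here the ratio of polyA to RiboMinus CPM moved from 1.08 to 5.9 for Cnot8 and from 0.892 to 2.59 for Btg4.

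Before maturation, several clearance factors had lower levels in polyA libraries of cKO oocytes. At GV, Btg4, Cnot7 and Dcp2 were lower in cKO oocytes, 3 of the 9, all lower, against 7.38% of genes called in either direction and 3.91% lower. The median log2 difference was -0.54 over the 9 genes and 0.08 over all genes. Btg4 had 1364 and 1532 CPM in control females and 693 and 999 CPM in cKO females (log2 -0.78 ± 0.16, adjusted p = 0.0128). Cnot7 had 539 and 651 against 156 and 279 CPM (log2 -1.45 ± 0.28, adjusted p = 0.00889). Dcp2 had 197 and 170 against 97.8 and 109 CPM (log2 -0.83 ± 0.17, adjusted p = 0.0127). The groups did not overlap for these 3. Detected genes per oocyte were 18098 to 19626 in GV controls and 20149 to 21753 in GV cKO oocytes. Reads outside genes were 9.88% to 11.2% against 10.1% to 14.2%. Their part in the genotype differences was not tested.

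At GV, Zfp36l2 was higher in both cKO females, 10.5 and 7.26 against 2.72 and 3.23 CPM, without passing the test (log2 1.57 ± 0.49, adjusted p = 0.0628, and 2.6e-05 to 0.269 over 12 alternatives). Cnot6l (log2 -0.54 ± 0.18) and Dcp1a (-0.55 ± 0.20) were lower in both cKO females and were not called. Cnot1, Cnot8 and Pan2 overlapped between the genotypes. The calls at GV rest on 2 females a group: all 3 were lost without V857 or without control V889, and Dcp2 also without control V856 (adjusted p of 0.0604 to 0.14). Fitted on these 4 females alone, 0 of the 9 and 1 gene in all were called, with adjusted p of 0.144 to 0.19 for the same 3.

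At GV3h, 6 of the 9 were called, 5 lower and 1 higher, against 25.2% of all genes (12.7% lower, 12.5% higher). The median log2 difference was -0.76 over the 9 genes and 0.07 over all genes. Cnot7 had 612, 561 and 573 CPM in the controls and 187, 269 and 133 CPM in the cKO females (log2 -1.57 ± 0.23, adjusted p = 2.87e-04). Dcp1a had 1017, 1010 and 899 against 462, 619 and 381 CPM (log2 -1.0 ± 0.16, adjusted p = 5.38e-04). Dcp2 had 230, 194 and 179 against 120, 104 and 86.6 CPM (log2 -0.96 ± 0.14, adjusted p = 3.08e-04). Every cKO female was below every control female for these mRNAs. Detected genes per oocyte were 18529 to 19290 in GV3h controls and 20933 to 22147 in GV3h cKO oocytes. Reads outside genes were 10.1% to 12.9% against 11.1% to 13.3%, and the part of either was not tested.

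Btg4 at GV3h had 1542, 1428 and 1487 CPM in controls and 747, 830 and 784 CPM in cKO females (log2 -0.92 ± 0.13, adjusted p = 2.76e-04). Cnot6l had 647, 636 and 691 against 420, 440 and 303 CPM (log2 -0.76 ± 0.15, adjusted p = 0.00171). Zfp36l2 was the 1 factor that was higher, with 2.93, 3.05 and 4.37 CPM in controls and 12.3, 5.07 and 9.6 CPM in cKO females (log2 1.37 ± 0.40, adjusted p = 0.0209). Its call was lost without cKO female V946 (adjusted p = 0.104) or V993 (0.0623) and without control V951 (0.0828) or V982 (0.0786). The other 5 calls stood in all 14 alternatives, and all 6 stood without V983, whose libraries were the least similar of its group. Cnot8 and Pan2, each at log2 -0.41 with groups that did not overlap, were called when the GV3h groups were fitted alone (adjusted p of 0.0206 and 0.0235).

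At MII, 2 of the 9 were called in polyA libraries, Btg4 and Cnot7, both lower, against 18.9% of genes called and 6.99% lower. Btg4 had 6514, 6585 and 5432 CPM in the controls and 2653, 3300 and 2901 CPM in the cKO females (log2 -1.07 ± 0.14, adjusted p = 1.28e-04). Cnot7 had 1407, 1889 and 1660 against 846, 1048 and 913 CPM (log2 -0.82 ± 0.23, adjusted p = 0.0206). Each cKO female was below each control female for both. Detected genes per oocyte were 13699 to 16389 in MII controls and 16383 to 18025 in MII cKO oocytes, and their part was not tested. The call of Cnot7 was lost without cKO female V841 (adjusted p = 0.0732) or V897 (0.0584) or control V853 (0.0721). Cnot6l (log2 -0.05 ± 0.15), Cnot1 (0.06 ± 0.17), Cnot8 (-0.13 ± 0.15), Pan2 (0.06 ± 0.18) and Zfp36l2 (-0.45 ± 0.41) overlapped between the genotypes. Dcp1a (-0.33 ± 0.16) and Dcp2 (-0.31 ± 0.14) were lower in every cKO female and were not called.

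**Figure D3:**
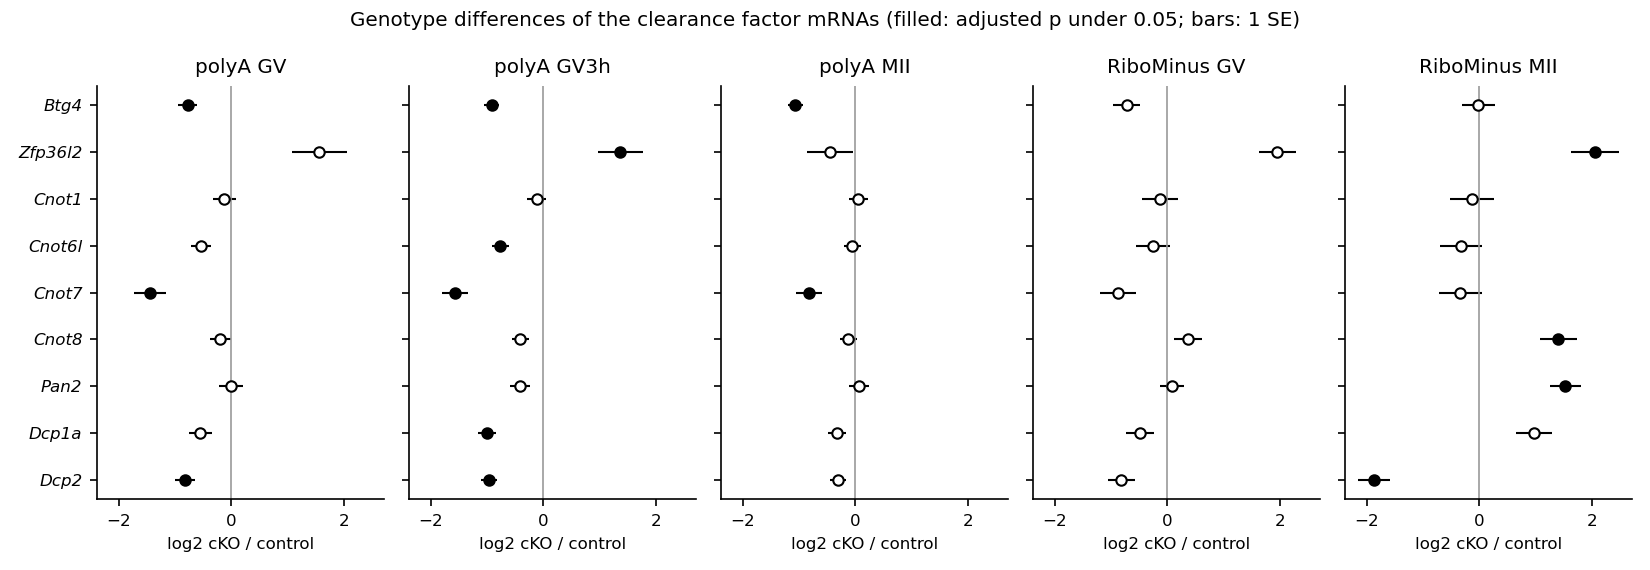
Log2 difference between cKO and control for each clearance factor in the 5 combinations of library type and stage, with bars of 1 SE and filled points for an adjusted p under 0.05. Btg4 and Cnot7 lie left of 0 with filled points at all 3 polyA stages, and Zfp36l2 lies right of 0 except at polyA MII.

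In RiboMinus libraries at GV, 0 of the 9 were called in edgeR and 0.0315% of all genes, with 3728 genes and 4 of the 9 under an unadjusted p of 0.05 (Btg4, Zfp36l2, Cnot7 and Dcp2). DESeq2 called 2, Zfp36l2 and Dcp2, among 1573 genes. Btg4 had 1595 and 1606 CPM in controls and 1163 and 776 CPM in cKO females (log2 -0.72 ± 0.24, adjusted p = 0.238). Cnot7 had 854 and 852 against 623 and 305 CPM (log2 -0.88 ± 0.32, adjusted p = 0.268). Dcp2 had 322 and 344 against 213 and 163 CPM (log2 -0.82 ± 0.24, adjusted p = 0.192). Zfp36l2 had 24.1 and 27.9 against 79.7 and 122 CPM (log2 1.95 ± 0.32, adjusted p = 0.0803). The females did not overlap for these 4 mRNAs, although single oocytes did. Oocytes of the cKO females reached 1848 CPM of Btg4, 1023 CPM of Cnot7 and 305.5 CPM of Dcp2, and went down to 23.0 CPM of Zfp36l2. The values of the females lay on the same side as in the polyA libraries at GV. Cnot8 lay on the other side, with 111 and 98.3 CPM in controls and 144 and 126 CPM in cKO females (log2 0.37 ± 0.25, adjusted p = 0.532), against -0.19 in polyA libraries, and Pan2 had log2 differences of 0.09 in RiboMinus and -0.01 in polyA libraries. Without V1126, 2 of the 9 were called: Zfp36l2 (adjusted p = 0.0192) and Cnot7 (0.0269).

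In RiboMinus libraries at MII, 4 of the 9 were called, 3 higher and 1 lower in cKO oocytes, against 7.3% of genes called (3.61% higher, 3.69% lower). Zfp36l2 had 17.2 CPM in V1145 and 54.4 and 88.9 CPM in the cKO females (log2 2.06 ± 0.43, adjusted p = 0.0310). Pan2 had 70.4 against 223 and 184 CPM (log2 1.53 ± 0.28, adjusted p = 0.0236), and Cnot8 had 49.1 against 156 and 104 CPM (log2 1.41 ± 0.33, adjusted p = 0.0398). Both cKO females exceeded V1145 for these 3. Over the 4 cKO oocytes Zfp36l2 ranged from 27.1 to 141.3 CPM, and the value of V1166 is weighted toward its deeper library. Dcp2 had 495 CPM in V1145 and 155 and 115 CPM in the cKO females (log2 -1.88 ± 0.28, adjusted p = 0.0144). Dcp1a had 1339 against 2901 and 2334 CPM and was not called (log2 0.97 ± 0.32, adjusted p = 0.0959), but 5 of 13 alternatives called it, with an adjusted p of 0.017 in DESeq2. Btg4 had 1330 against 1376 and 1247 CPM (log2 -0.02 ± 0.29, adjusted p = 0.995). V1145 held the lowest Pan2, Cnot8 and Zfp36l2 and the highest Dcp2 of all 7 RiboMinus females, so these differences rest on 1 female. Reads outside genes were 11.2% to 12% in its libraries and 8.43% to 9.56% in the cKO libraries, and their part in the differences was not tested. The call of Zfp36l2 was lost when limma's voom was run on oocytes with the female as a random block (adjusted p = 0.0737).

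Across library types, Btg4 at MII had a called genotype difference in polyA libraries alone. A cKO level of 2951 ± 326 CPM stood against 6177 ± 646 CPM in controls (SD, n = 3 females each). In RiboMinus libraries the values were 1312 ± 91.1 CPM in 2 cKO females and 1330 CPM in V1145. Zfp36l2 had the opposite arrangement, with a called difference in RiboMinus and overlapping polyA values of 2.05 ± 0.830 and 2.86 ± 0.754 CPM. The difference between the library types in the genotype effect was not tested.

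The other genes of the pathway were a list of 44. It held further CCR4-NOT subunits, BTG/TOB proteins, other deadenylases and related proteins, and mRNA-binding recruiters. It also held decapping and 5′ decay factors, and uridylation and 3′ decay enzymes. All 44 were tested. From GV to MII in polyA libraries 24 were called in controls, 18 higher and 6 lower, and 22 in cKO oocytes, 14 higher and 8 lower. Over all genes the shares were 42.5% in controls (16.8% higher, 25.7% lower) and 44.7% in cKO oocytes (18.1% and 26.6%). The largest changes in controls were those of Pnldc1, related to the deadenylase PARN (log2 -2.62 ± 0.49), Cnot10, a CCR4-NOT subunit (-1.92 ± 0.26), and Btg1 of the BTG/TOB family (1.9 ± 0.27). Btg3, of the same family, was also among the 4 largest, but it had 2 counts over the GV controls and 13 over the MII controls, so no fold is given, and it was called in 3 of the 11 alternatives that gave a value for it. In cKO oocytes Pnldc1 (-2.75 ± 0.48), the RNA helicase gene Ddx6 (-2.70 ± 0.43) and Patl2 (-2.65 ± 0.33) fell and Angel2 (2.08 ± 0.23) rose. In RiboMinus libraries 0 were called in controls, where 5 had an unadjusted p under 0.05 and 0.00787% of all genes were called. In cKO oocytes 4 were called, against 2.32% of all genes and all lower: Patl2 (-2.76 ± 0.26), Ddx6 (-2.27 ± 0.37), Lsm1 (-2.03 ± 0.41) and Tob1 (-1.75 ± 0.35). Of 12 alternatives, 6 called Tob1 and 7 called Lsm1, and fitted on the compared groups alone 0 genes were called over the whole table.

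The library difference was called for 14 of the 44 in each genotype, 13 larger in polyA and 1 smaller. Over all genes 22.8% were called in controls, 10.9% larger in polyA, and 20.7% in cKO oocytes, 11.6% larger. In controls the largest were Dis3l2, a 3′ exonuclease for uridylated RNA (log2 3.25 ± 0.67), Btg1 (2.60 ± 0.46), Lsm1 of the LSM ring that promotes decapping (2.47 ± 0.63) and Angel2 (2.33 ± 0.40). In cKO oocytes they were Pnldc1 (-2.01 ± 0.68), Lsm1 (1.97 ± 0.54), the decapping scaffold gene Edc4 (1.70 ± 0.27) and Cpeb1, which encodes the CPE-binding protein (1.38 ± 0.42). Of 17 alternatives, 10 called Cpeb1, 11 called Pnldc1 and 13 called Lsm1 in this comparison. By role in controls, those called larger in polyA were 4 of 6 other deadenylases and related proteins, and 4 of 11 recruiters. Among decapping and 5′ decay factors it was 2 of 10, and among CCR4-NOT subunits 1 of 7. Among BTG/TOB proteins and among uridylation and 3′ decay enzymes it was 1 of 5 each. The median difference over the list was 0.84 in controls and 0.60 in cKO oocytes, against 0.00 and -0.24 over all genes.

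Between genotypes in polyA libraries, 6 of the 44 were called at GV (4 higher, 2 lower), 20 at GV3h (10 and 10) and 12 at MII (4 and 8). Over all genes the shares were 7.38%, 25.2% and 18.9%. Btg3 was higher in cKO oocytes at the 3 stages. At GV it had 2 counts over the control females and 456 over the cKO females. At GV3h these were 25 and 393 (log2 2.92 ± 0.59) and at MII 13 and 149 (2.43 ± 0.62). Its folds therefore rest on few control counts. Samd4, which encodes a Smaug-type recruiter of deadenylases, was lower at the 3 stages (-2.54 ± 0.70, -2.19 ± 0.58 and -2.56 ± 0.59). The GV call was kept in 7 of 12 alternatives. The cKO females held few counts of Samd4, 122, 94 and 114 in all at the 3 stages. Lsm1 was higher at GV (1.74 ± 0.37) and GV3h (2.36 ± 0.31), and Tnrc6a, a partner of Argonaute proteins, at GV (1.47 ± 0.29), where 8 of 12 alternatives called each of them. Nudt16 was higher at GV3h (1.58 ± 0.43) and MII (1.75 ± 0.43), and Ddx6 lower at MII (-1.47 ± 0.39). The controls held 111 counts of Nudt16 in all at GV3h and 128 at MII. In RiboMinus libraries 0 were called at GV, where 11 had an unadjusted p under 0.05, and 5 at MII, 3 higher and 2 lower, against 0.0315% and 7.3% of all genes. At MII, Tut4, which encodes a terminal uridylyltransferase, had 1 count in V1145 and 1137 over the cKO females. Btg1 (2.19 ± 0.37) and Dis3l2 (1.64 ± 0.40) were higher and Patl2 (-2.37 ± 0.29) lower in cKO oocytes. In the polyA interaction 2 were called, against 1.94% of all genes: Ddx6 (-2.85 ± 0.61), called in 10 of 18 alternatives, and Cpeb1 (1.47 ± 0.24), called in 17 of 18. In the RiboMinus interaction 0 were called, where 8 had an unadjusted p under 0.05.

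Over the 16 polyA females the genes most like Btg4, among 9284 others with an average log2 CPM of at least 3, were Mthfd2 (Pearson's r = 0.99), Ccdc6 (0.99) and Katnbl1 (0.99) on log2(CPM + 1). Within the set, Btg4 was closest to Cnot7 (0.95), Dcp1a (0.95) and Cnot8 (0.93), and farthest from Zfp36l2 (-0.72) and Cnot1 (-0.67). Among the 9284 genes, Cnot7, Dcp1a and Cnot8 ranked only 247, 264 and 472 for likeness to Btg4. The closest pair was Cnot8 and Pan2 (0.99). The females fall into groups by stage and genotype, and these values describe how the genes follow those groups.

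The counting bears on several of the genes. Cnot7 and Cnot8 are paralogs, as are Cnot6l and Cnot6, Dcp1a and Dcp1b, and Zfp36l2 and Zfp36l1, and how reads shared between such genes were counted is not given in the sources used here. Exons of Zfp36l2 (2.97% of bases), Cnot1 (0.769%) and Cnot7 (4.24%) overlap exons of AC132455.1, 4930513N10Rik and Zdhhc2 on the opposite strand in GENCODE M21. Without a stated strand setting, reads from those stretches cannot be assigned to a strand.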

How the data were processed

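The authors' deposited files hold raw read counts per Ensembl mouse gene, 1 file per oocyte. The submitters' processing notes name cutadapt 2.5, STAR 2.7.2a, SAMtools 1.9, HTSeq 0.9.1 and build mm10. The annotation release, strand setting and treatment of duplicates are not given in the sources used here. Per the labels' protocols, polyA RNA was captured on oligo(dT) beads and amplified, and RiboMinus libraries used random hexamers. Of 108 samples 86 were used, and the 22 rRNA files were not. Symbols matched 55394 of 55573 gene IDs.

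Counts were summed per female, filtered with filterByExpr, scaled with TMM and tested with edgeR 4.0.16 (glmQLFit, glmQLFTest, two-sided, R 4.3.3), fitting every group of a library type together, or both library types together for the library difference. Residual degrees of freedom were 10 for polyA, 3 for RiboMinus and 13 for both. Alternatives used DESeq2 1.42.0 and limma 3.58.1. Code was tested on simulated data. The 9 factors and all lists were chosen with earlier results of these data known. All 9 are named; other pathway genes are named, at most 4 per comparison, by the largest absolute log2 change if called and at least 1. No libraries were identical. The labels do not say how females were assigned to stages.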

Additional observations from a re-analysis of the deposited data

Results flagged for a closer look

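In RiboMinus GV cKO oocytes, 1 oocyte of female V1126 was far above the other 6 for 3 mRNAs. It had 1848 CPM of Btg4 against 711 to 1049 CPM in the others, 1023 CPM of Cnot7 against 282 to 568.4 CPM, and 2788 CPM of Dcp1a against 1149 to 1592 CPM. In RiboMinus MII cKO oocytes, 1 oocyte of female V1167 had 86.0 CPM of Dcp2 against 153 to 160 CPM in the other 3. These were 4 of the 54 combinations of gene and group with 4 to 10 oocytes, where chance flags about 1 in 20.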

How the results depend on the processing

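Of 1908 values of a log2 difference for the 9 factors under alternatives, 1787 kept their direction and side of the threshold, 31 lost a call, 90 gained one, and 0 of those called in either setting reversed; a value called in neither counted as kept. No paired analysis was possible because the shared oocyte numbers only name oocytes and each female gave 1 genotype and 1 stage. The number of the 9 factors called at polyA GV was 3, and it was 0 with the compared groups alone and 6 both with the oocyte as replicate and with voom on oocytes. At polyA MII it was 2, and 4 with the oocyte as replicate. At RiboMinus GV it was 0, and 2 with DESeq2, 3 with no filter, 6 with the oocyte as replicate and 4 with voom. The RiboMinus stage change in controls had 0, and 2 with DESeq2, 5 with the compared groups alone, 1 with no filter, 5 with the oocyte as replicate and 2 with voom; in cKO oocytes it had 0, and 1, 1 and 2 with DESeq2 (also no filter), the oocyte as replicate and voom. The interaction of stage and genotype had 0 in polyA, and 1 with DESeq2 and with the oocyte as replicate, and 0 in RiboMinus, and 2 with DESeq2 and with no filter, 4 with the oocyte as replicate and 3 with voom. Oocytes of a female are not independent, so p-values with the oocyte as replicate are too small. Leaving out 1 female at a time gave 0 to 4 calls at polyA GV, 5 to 6 at GV3h, 1 to 2 at polyA MII, 0 to 2 at RiboMinus GV, 6 to 7 for the polyA stage change in controls and 8 to 9 in cKO oocytes, 5 to 7 for the library difference in cKO oocytes, and the reported count in the other comparisons. V1145 could not be left out, so its 3 oocytes were left out in turn instead, which does not show how far the RiboMinus MII calls rest on that female.

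Over all genes, calls at polyA GV numbered 1420, and 1 with the compared groups alone, 2729 with DESeq2, 2261 with no filter, 3263 with voom and 5908 with the oocyte as replicate. At RiboMinus GV they numbered 8, and 3 to 5774 over the alternatives, and at RiboMinus MII 1857, and 1701 to 5228. The RiboMinus stage change had 2 in controls, and 0 to 5732, and 591 in cKO oocytes, and 0 to 3795. The polyA interaction had 373, and 13 to 2287, the RiboMinus interaction 0, and 0 to 2837, and the library difference in cKO oocytes 5139, and 2773 to 7840. At polyA GV3h 4849 became 7548 with the oocyte as replicate, and from GV to GV3h 0 became at most 66 in controls and 86 in cKO oocytes. Scaling by library totals instead of TMM factors shifted the all-gene median by 0.19 at polyA GV, 0.23 at GV3h, 0.13 at RiboMinus GV, 0.20 at RiboMinus MII, -0.43 and -0.52 for the polyA stage change in controls and cKO oocytes, and -0.32 and -0.70 for the library difference. DESeq2 size factors moved the last by -0.19. With totals the share of higher calls went from 47.0% to 74.2% at polyA GV, 49.5% to 70.4% at GV3h, 49.5% to 65.9% at RiboMinus MII, 39.5% to 21.4% and 40.5% to 20.1% for the polyA stage change, 47.7% to 28.2% and 55.8% to 20.7% for the library difference, and 81.8% to 68.9% for the polyA interaction. None of the called factors changed sign under these scalings. Precision is limited by 2 or 3 females a group, by 1 at RiboMinus MII, and by the few counts of Zfp36l2 in polyA libraries.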
